A study of Mus musculus with 6 samples.

Results

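Interferon-stimulated genes and the IRF and STAT factors that control them were examined in regulatory T cells (Tregs) that lacked histone deacetylase 11 (HDAC11), the sole class IV member of the histone/protein deacetylases. The 40 listed genes fell into 4 roles: 4 receptor chains, 7 regulators, 22 targets of type I interferons and 7 targets of interferon-gamma. A listed gene was measured where the array annotation gave at least 1 probe set (a group of short probes read together as 1 value) to that gene symbol alone. That held for 36 of the 40 genes, through 53 probe sets, out of 12393 genes with such a probe set on the array. Isg15, Ifi44, Ddx58 and Ifi27 were not analysed here.

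RNA from CD4+CD25+ Tregs isolated with magnetic beads was read on 6 mouse expression arrays. The 3 WT arrays held cells of wild-type C57BL6 mice, and the 3 HDAC11-/- arrays held cells of fl-HDAC11/Foxp3cre mice, in which a Cre recombinase expressed from the Foxp3 locus removes floxed Hdac11 in Foxp3+ cells. No treatment and no age is given in the labels for either group, so cells were compared as isolated. The WT label names neither Cre nor a floxed allele, and therefore the loss of HDAC11, the presence of Cre and DNA carried along with either allele cannot be told apart. The 2 Hdac11 probe sets did not differ between groups beyond their spread (log2 fold changes of -0.12 and -0.10, limma adjusted p = 0.2221 and 0.5315). The sources used here do not place their probes relative to the deleted part, so they check nothing. Replicates are described as independent samples, without saying that each came from its own mouse, and the p-values measure the spread between these arrays. The comparison asks which transcripts of the interferon pathway differ in level when HDAC11 is targeted in Tregs.

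Type I interferons bind a receptor of Ifnar1 and Ifnar2, and interferon-gamma binds a receptor of Ifngr1 and Ifngr2. Kinases of the JAK family at these receptors phosphorylate STAT proteins. STAT2 with IRF9 and a STAT partner forms the complex ISGF3, which binds the interferon-stimulated response element (ISRE). STAT dimers formed after interferon-gamma bind the gamma-activated sequence (GAS). The IRF proteins bind ISRE-like DNA as well, and many of them are induced by interferon themselves. T cells, Tregs included, carry both receptors.

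Promoter windows were available for 30 of the 36 measured genes in RefSeq for build GRCm38.p6, each window running from 250 bases before a transcription start to 50 bases after it. Dhx58, Iigp1, Mx1, Mx2, Oas2 and Usp18 had no window in the table. They were searched on both strands for an ISRE core (GAAA, any 2 bases, then GAAA) and for a GAS core (TTCNNNGAA, where N is any base, which reads the same on both strands). The 2 motifs were searched separately and may overlap. The windows of Cxcl10, Irf3 and Trim30a are shown because these genes had a probe set that changed by at least 1.5-fold. Each is printed 5′ to 3′ on the strand of the gene, with an ISRE core match in capitals. The regions are chr5:92348840-92349139 (minus strand) for Cxcl10, chr7:44997398-44997697 (plus strand) for Irf3, and chr7:104465144-104465443 (minus strand) for the start of Trim30a that is shown.
Cxcl10: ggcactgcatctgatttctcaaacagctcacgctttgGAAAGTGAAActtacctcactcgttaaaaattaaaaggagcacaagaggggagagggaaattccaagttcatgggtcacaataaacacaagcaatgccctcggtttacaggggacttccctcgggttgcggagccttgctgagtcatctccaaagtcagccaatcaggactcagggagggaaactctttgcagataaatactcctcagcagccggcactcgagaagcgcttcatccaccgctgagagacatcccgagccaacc
Irf3: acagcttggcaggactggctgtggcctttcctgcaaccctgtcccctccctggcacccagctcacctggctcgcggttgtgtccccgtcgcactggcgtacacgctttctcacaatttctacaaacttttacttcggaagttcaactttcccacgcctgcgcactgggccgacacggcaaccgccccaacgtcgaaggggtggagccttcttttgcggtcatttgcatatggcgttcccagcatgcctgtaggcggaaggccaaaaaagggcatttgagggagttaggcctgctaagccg
Trim30a: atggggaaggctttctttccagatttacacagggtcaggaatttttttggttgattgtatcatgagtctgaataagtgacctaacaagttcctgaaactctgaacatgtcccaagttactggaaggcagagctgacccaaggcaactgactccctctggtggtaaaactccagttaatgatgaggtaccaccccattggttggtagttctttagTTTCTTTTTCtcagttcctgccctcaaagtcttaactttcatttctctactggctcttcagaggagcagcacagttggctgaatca
Counting from the transcription start, the match in Cxcl10 began at position -213, and in Trim30a it began at position -36 and lay on the opposite strand. The window of Irf3 held no ISRE core. Another annotated start of Trim30a (chr7:104446076-104446375) held the same 10 letters from position 3.

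An ISRE core was found in the windows of 13 of the 30 genes (43.3%), beside 3.99% of the 27025 genes with a window in the table. It was present in 5 of 6 interferon-gamma targets, 6 of 13 type I targets, 2 of 7 regulators (Irf2 and Stat2) and none of the 4 receptor chains. A GAS core was found in 10 of the 30 genes (33.3%), beside 9.55% of all genes. Iigp1 and Mx1, both called lower below, are not part of the following split by the ISRE core. Among the 13 genes with an ISRE core, 2 passed the adjusted p threshold as higher in HDAC11-/- cells, 6 as lower and 5 in neither direction (median log2 fold change -0.13). Among the 17 genes without it, 3 were higher, 4 lower and 10 neither (median -0.08). Of all measured genes, 22.9% passed as higher and 23.2% as lower. A difference between the 2 sets was not tested. A match is a run of letters and no evidence of binding.

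Expression is given as deposited, as log2 values from robust multi-array averaging (RMA), so 1 unit is a doubling. A fold change is the mean of the 3 HDAC11-/- arrays minus the mean of the 3 WT arrays on that scale, and each gene is represented by its brightest probe set unless stated otherwise. A gene was called where limma gave an adjusted p under 0.05 over all 22626 probe sets and the change was at least 1.5-fold. By that rule 1 of the 36 genes was higher in HDAC11-/- Tregs (Cxcl10) and 2 were lower (Iigp1 and Mx1), beside 3.46% of all genes higher and 3.72% lower. Counting any probe set of a gene, 1 was higher and 4 were lower, since Irf3 and Trim30a joined Iigp1 and Mx1, beside 5.31% and 6.66% of all genes. Without the fold threshold 6 genes were higher and 14 lower, beside 22.9% and 23.2% of all genes, and 16 passed in neither direction. By SAM, the permutation method of the study, 3 were higher and 13 lower (18% and 20.3% of all genes), since Gbp3, Isg20, Usp18 and Rsad2 no longer passed. The median log2 fold change over the 36 genes was -0.09, and over all 12393 genes it was -0.04. Most of these genes, like most on the array, moved little: 33 of 36 differed by less than 1.5-fold, beside 11501 of all 12393. A few moved further, in opposite directions.

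**Figure D1:**
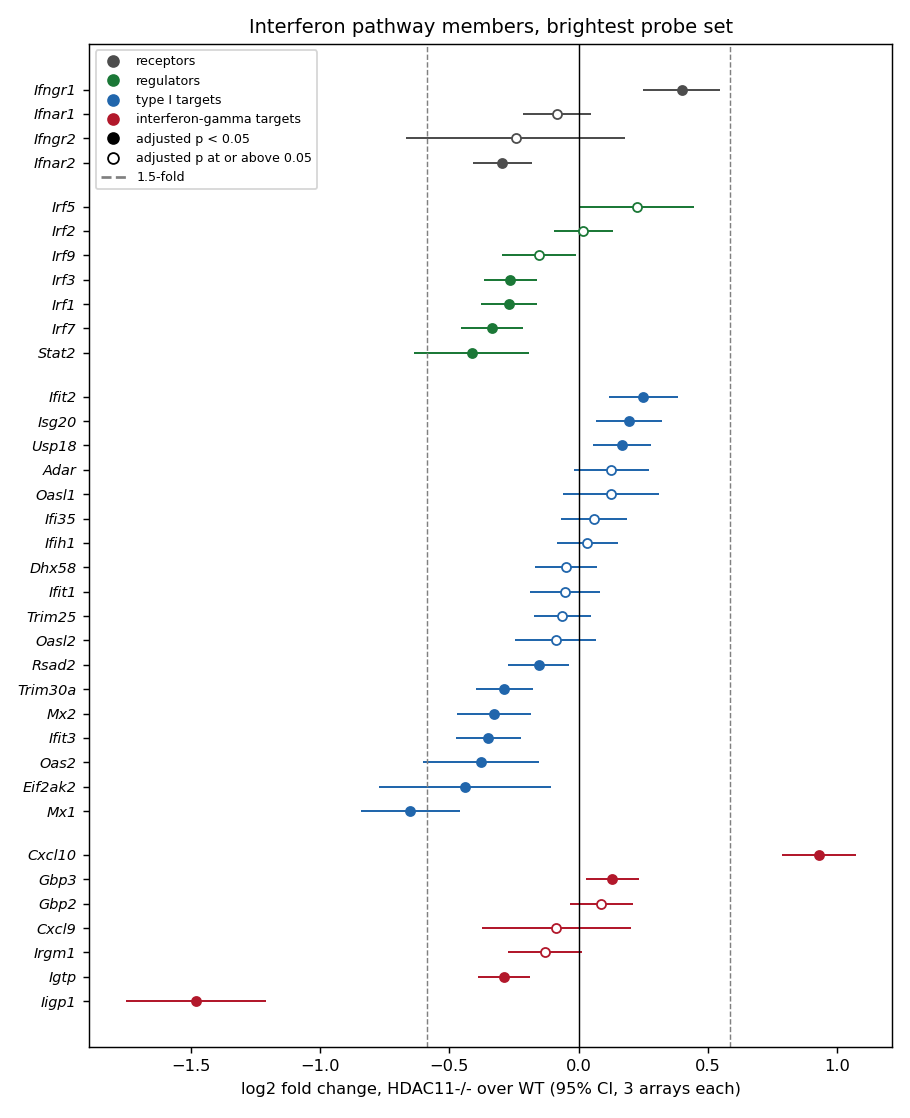
Log2 fold change of HDAC11-/- over WT Tregs (horizontal axis) for the brightest probe set of each of the 36 measured genes, coloured by role, with 95% confidence intervals from limma over 3 arrays in each group. Filled points have an adjusted p under 0.05 and dashed lines mark 1.5-fold; Cxcl10 lies beyond the upper line, Iigp1 and Mx1 beyond the lower one.

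Members were read beside the other cell types that CD4+CD25+ beads can retain, because in bulk RNA fewer cells of a type and less RNA per cell cannot be told apart. The summed linear level of 8 T cell and Treg markers was 22403 to 22888 in WT and 23783 to 24396 in HDAC11-/- arrays, and none of the 8 was called. Foxp3, the defining factor of Tregs, was at or below the level of the bacterial control probes in both groups and gave no check of identity. The sum of 6 B cell markers was lower in HDAC11-/- arrays (809 to 851 against 1757 to 1816 in WT), with Blk, Cd22, Cd79a and Ms4a1 called lower and Pax5 at control level in both groups. The sum of 7 conventional dendritic cell markers was lower (1051 to 1100 against 2715 to 2766), with Batf3 and H2-Aa called lower and Cd209a and Xcr1 at control level. That sum was mostly H2-Aa, the brightest of the 7 (means of 11.20 in WT and 9.59 in HDAC11-/-). By limma adjusted p, 4 of these 7 were lower and none was higher, beside 23.2% and 22.9% of all genes. Flt3 was at 0.11 (limma adjusted p = 0.6325). Ly6d and Spib were called lower among 7 plasmacytoid dendritic cell markers, whose sum overlapped between groups (2669 to 2710 against 2627 to 2734). By limma adjusted p, 4 of these 7 were lower and 2 were higher (Bst2 at 0.31 and Ccr9 at 0.23). Pacsin1, the brightest of the 7 with a mean of 10.51 in both groups, weighed most in that sum. Gzma and Ncr1 were called lower among 7 markers of CD8 T and NK cells (1653 to 1783 against 2028 to 2093). By limma adjusted p, 4 of these 7 were lower and 1 was higher (Cd8b1 at 0.42). Of 8 monocyte and macrophage markers, C1qa, C1qb and Vcam1 were called higher at low summed levels (323 to 358 against 250 to 262), with Adgre1, C1qb, Cd14 and Fcgr1 at control level in both groups. Csf1r did not differ by its brightest probe set (-0.02), while its dimmer ones were called higher (1.13 and 0.73). The part of these shifts in the results given here was not tested.

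The receptor chains changed by less than 1.5-fold, and the brightest probe sets of Ifngr1 and Ifnar2 moved apart. Ifngr1, the ligand-binding chain for interferon-gamma, read 9.58, 9.73 and 9.77 in WT and 10.06, 10.13 and 10.09 in HDAC11-/- cells. All 3 HDAC11-/- values lay above the WT values, and the difference was 0.40 (SE 0.06, limma adjusted p = 0.00253). Ifngr2, the other chain of that receptor, overlapped between groups by its brighter probe set. The fold change of -0.24 there was within its spread (SE 0.18, limma adjusted p = 0.2995). Its dimmer probe set was at 0.14 without overlap and did not pass (limma adjusted p = 0.0564). Ifnar1 also missed the threshold (-0.08, adjusted p = 0.254).

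Ifnar2, the chain that binds type I interferons most tightly, gave opposite answers by its 2 probe sets. The brighter read 9.55, 9.51 and 9.52 in WT and 9.29, 9.20 and 9.20 in HDAC11-/- cells, so that the mean was lower with a fold change of -0.30 (limma adjusted p = 0.003037, SE 0.05). The dimmer read 9.28, 9.14 and 9.01 in WT and 9.53, 9.50 and 9.48 in HDAC11-/- cells, a rise of 0.36 (SE 0.07, adjusted p = 0.008). Neither pair of groups overlapped, so no direction is given for Ifnar2 as a gene. Receptor transcripts by the 4 brightest probe sets had a median log2 fold change of -0.16. Of the 4, 1 was higher, 1 lower and 2 did not pass, beside 22.9% of all genes higher and 23.2% lower.

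Regulators tended downwards by small amounts: 4 of 7 were lower by adjusted p (Irf1, Irf3, Irf7 and Stat2) and none was higher. Over all genes the shares were 23.2% lower and 22.9% higher. None of the 7 was called by its brightest probe set. Their median log2 fold change was -0.27, beside -0.04 over all genes. Irf1, an activator induced strongly by interferon-gamma, read 11.76, 11.69 and 11.72 in WT and 11.48, 11.47 and 11.42 in HDAC11-/- cells. Every HDAC11-/- array was below every WT array, and the means differed by -0.27 (SE 0.05, limma adjusted p = 0.003545). Irf7, the factor that amplifies type I interferon production, fell by 0.33 (adjusted p = 0.002213), and Stat2, the STAT of ISGF3, fell by 0.41 (SE 0.09, adjusted p = 0.01124), with its dimmer probe set at -0.31 (adjusted p = 0.07428). Irf9, the DNA-binding partner of Stat2, had a fold change of -0.15 that did not pass (adjusted p = 0.07591). Irf2, a competitor of Irf1 at shared sites, was at 0.02 (adjusted p = 0.7756), and Irf5, which acts downstream of Toll-like receptors, was at 0.22 (adjusted p = 0.08991).

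Irf3, the factor activated by the kinase TBK1 after nucleic acid sensing, had 4 probe sets that differed in size of change. The brightest read 11.22, 11.19 and 11.22 in WT and 10.94, 10.97 and 10.92 in HDAC11-/- cells (log2 fold change -0.27, SE 0.04, limma adjusted p = 0.003), and the next read a change of -0.31. The third read 9.25, 9.24 and 9.26 in WT and 7.22, 7.22 and 7.38 in HDAC11-/- cells. The mean difference there was -1.97 on the log2 scale (SE 0.06, adjusted p = 4.297e-06), with tight replicates in both groups. The fourth overlapped between groups, reading 6.84, 6.46 and 6.08 in WT and 6.27, 5.65 and 6.05 in HDAC11-/- cells (-0.47, adjusted p = 0.126). The largest and smallest of the 4 changes were 1.71 log2 units apart. Among the 12 genes with several probe sets, Irf3, Iigp1 and Ifnar2 had changes that differed by over 1.5-fold between probe sets, beside 18.1% of 4956 such genes on the array. No source used here says which transcript parts the probes of Irf3 cover.

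**Figure D2:**
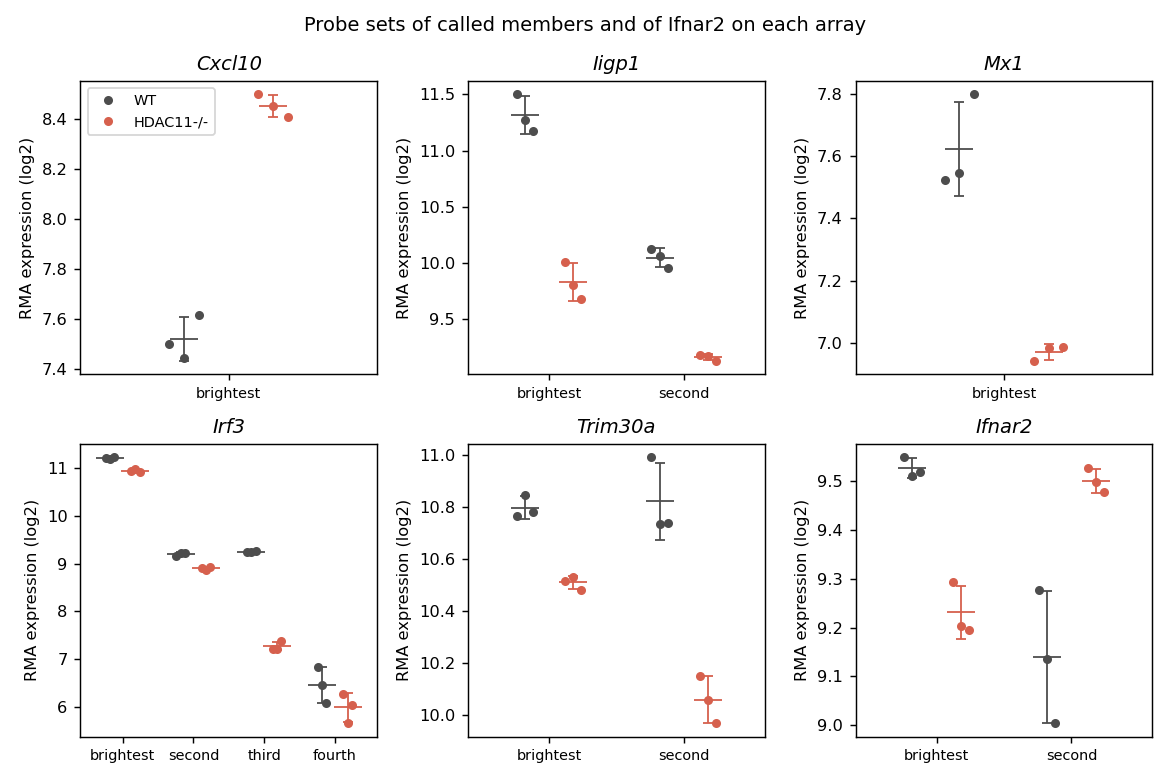
RMA expression (vertical axis, log2) on each array for every probe set of Cxcl10, Mx1, Iigp1, Irf3, Trim30a and Ifnar2, with points for single arrays and bars for the mean and SD of 3 arrays. WT and HDAC11-/- arrays separate in every called probe set, the 2 probe sets of Ifnar2 separate in opposite directions, and the third probe set of Irf3 shows a change of -1.97 beside -0.27 for the brightest.

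Of the 18 measured type I targets, 3 were higher by adjusted p, 7 were lower and 8 passed in neither direction. The shares of all genes were 22.9% higher and 23.2% lower. Their median log2 fold change, over the 18 targets, was -0.06. The change past 1.5-fold by a brightest probe set was that of Mx1, an antiviral dynamin-like GTPase. It read 7.52, 7.55 and 7.80 in WT and 6.94, 6.98 and 6.99 in HDAC11-/- cells. The 2 groups stood apart, by a mean log2 fold change of -0.65 (SE 0.08, 95% interval -0.84 to -0.46, limma adjusted p = 0.0009848). Without the third WT array, the highest of the group, the change was -0.56 and no longer reached 1.5-fold. Mx2, its close relative, fell by 0.33 (adjusted p = 0.004779).

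Trim30a, a TRIM protein that restrains Toll-like receptor signalling, was called lower by the dimmer of its 2 probe sets. Here the brighter is the one with the higher mean over all 6 arrays. It read 10.76, 10.85 and 10.78 in WT and 10.52, 10.53 and 10.48 in HDAC11-/- cells, a log2 fold change of -0.29 (limma adjusted p = 0.002997). The other probe set read 10.99, 10.73 and 10.74 in WT and 10.15, 10.06 and 9.97 in HDAC11-/- cells, a fold change of -0.76 (adjusted p = 0.0007486). Both probe sets thus placed all WT arrays above all HDAC11-/- arrays.

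The remaining lower type I targets stayed under 1.5-fold. Eif2ak2 (the double-stranded RNA-activated kinase PKR) fell by 0.44 (adjusted p = 0.04027), while its dimmer probe set read -0.01. Oas2, which makes the oligoadenylates that activate RNase L, fell by 0.38 (adjusted p = 0.01624), and Ifit3, an adaptor of the IFIT proteins that recognise viral RNA, fell by 0.35 (adjusted p = 0.002206). Rsad2, which encodes the antiviral enzyme viperin, was at -0.15 by its brightest probe set (adjusted p = 0.04093), while its other 2 probe sets read -0.0001 and -0.0053. The higher genes were Ifit2, a relative of Ifit3, at 0.25 (adjusted p = 0.01035), Isg20, an exonuclease of RNA, at 0.20 (adjusted p = 0.02352), and Usp18, the protease that removes ISG15 and restrains the type I receptor, at 0.17 (adjusted p = 0.02474). None of these higher genes passed when arrays were scaled on 12 reference genes, where Oasl2, Trim25, Ifit1 and Dhx58 passed as lower. In the main fit, the brightest probe sets of Oasl2, Trim25, Ifit1, Dhx58, Ifih1, Ifi35, Oasl1 and Adar lay between -0.09 and 0.13 and did not pass. Trim25, a ubiquitin ligase of RNA sensing, was at -0.06 there, but its other 2 probe sets were higher (0.24, adjusted p = 0.01123, and 0.29, adjusted p = 0.0233). The RNA sensor Ifih1 was at 0.03 (SE 0.05), and the RNA-editing enzyme Adar was at 0.13 (SE 0.06).

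By brightest probe sets, targets of interferon-gamma held the furthest changes in both directions, while the third probe set of Irf3 fell further (-1.97). Cxcl10, a chemokine that draws CXCR3-bearing T cells, read 7.50, 7.45 and 7.62 in WT and 8.50, 8.45 and 8.41 in HDAC11-/- cells. The lowest HDAC11-/- array was above the highest WT array, and the mean log2 fold change was 0.93 (SE 0.06, 95% interval 0.79 to 1.07, limma adjusted p = 7.963e-05). Cxcl9, a chemokine of the same receptor, was at or below the bacterial controls in both groups, so no fold is given for it, and it was the single gene of the 36 in that state.

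Iigp1, an immunity-related GTPase that attacks the vacuoles of intracellular parasites, moved the other way. Its brighter probe set read 11.50, 11.27 and 11.17 in WT and 10.01, 9.81 and 9.68 in HDAC11-/- cells. The groups did not overlap, and the mean log2 fold change was -1.48 (SE 0.11, 95% interval -1.75 to -1.21, limma adjusted p = 0.0001608). The dimmer probe set read 10.13, 10.06 and 9.96 in WT and 9.19, 9.17 and 9.13 in HDAC11-/- cells, a smaller change of -0.89 in the same direction (SE 0.06).

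Other interferon-gamma targets changed little. Igtp, another immunity-related GTPase, read 12.50, 12.48 and 12.53 in WT and 12.20, 12.22 and 12.22 in HDAC11-/- cells, without overlap (log2 fold change -0.29, limma adjusted p = 0.001983). Gbp2, a guanylate-binding protein, read 11.00, 11.06 and 11.08 in WT and 11.20, 11.10 and 11.11 in HDAC11-/- cells, a difference of 0.09 that did not pass (adjusted p = 0.2008). Its relative Gbp3 was higher by 0.13 (adjusted p = 0.04249), a sign that turned to -0.01 when arrays were scaled on 12 reference genes. Irgm1, which regulates the other immunity-related GTPases, was at -0.13 (adjusted p = 0.1235). In all, 2 of the 7 were higher, 2 were lower and 3 did not pass, beside 22.9% of all genes higher and 23.2% lower. Their median of -0.09 was the reading of Cxcl9, a gene at background. With dim probe sets filtered out the median was -0.02.

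**Figure D3:**
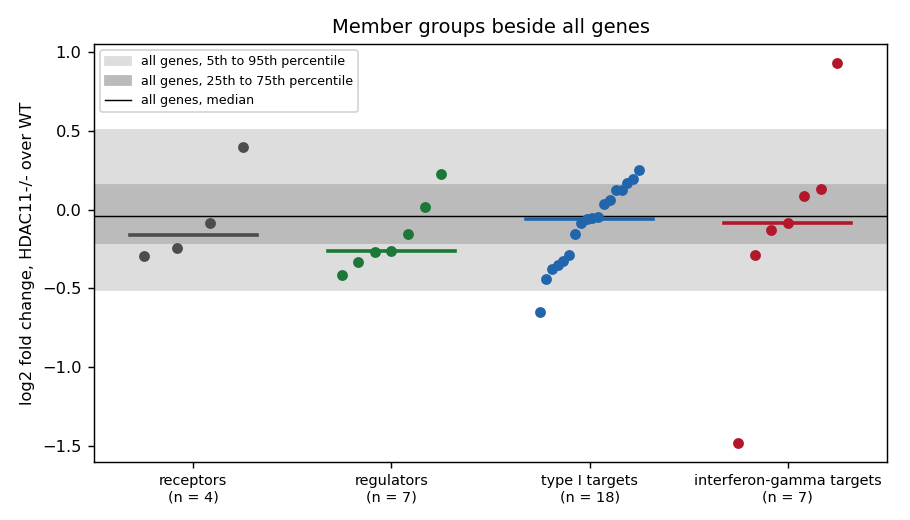
Log2 fold change of HDAC11-/- over WT (vertical axis) for each gene of the 4 roles, points ordered by value with a bar at the median, over bands for all 12393 genes (dark from -0.21 to 0.16, the 25th to 75th percentile, and light from -0.51 to 0.51, the 5th to 95th). Medians of the roles lie between -0.27 and -0.06, and Cxcl10, Iigp1 and Mx1 lie outside the light band.

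Separation of the groups was common on these arrays. Of the 36 genes, 8 had every HDAC11-/- array above every WT array and 16 had every one below, beside 28.2% and 29.6% of all genes. The lower set held 5 of the 7 regulators (Stat2, Irf7, Irf1, Irf3 and Irf9). Scaling of the arrays bore on the split between directions. On 12 reference genes, which lowered every fold change by 0.14, 2 genes were higher and 21 lower by adjusted p (12.9% and 44% of all genes), so that 8.7% of the passing genes were higher in place of 30%. On 27 bacterial control probe sets, the counts were 6 and 13. Cxcl10, Iigp1 and Mx1 were called in the same directions under both scalings.

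Of 132 further genes of the interferon pathway, 90 were measured, and 16 of them were higher and 39 lower by adjusted p, beside 22.9% and 23.2% of all genes. By both thresholds 3 were higher (Pias2, Ifng and Cmpk2) and 4 were lower (Ifnz, Oas1b, Trim34a and Irgm2), shares near the 3.46% and 3.72% of all genes. The median log2 fold change was -0.11. The cytokine of the interferon-gamma pathway itself, Ifng, read 7.87, 8.04 and 7.80 in WT and 8.55, 8.63 and 8.67 in HDAC11-/- cells. Its 3 HDAC11-/- values were all above WT, by 0.71 (SE 0.07, limma adjusted p = 0.0004752). Of the 10 measured interferon genes, 6 were at or below the bacterial controls in both groups. The type I interferon Ifnz read 9.24, 9.03 and 9.03 in WT and 7.34, 7.06 and 7.27 in HDAC11-/- cells, a change of -1.87 (adjusted p = 2.841e-05). Genes of the type I interferon family are closely similar, so which of them a probe set reads is uncertain.

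Receptor-proximal signalling genes and inhibitors of the pathway were read as 1 mixed list. By adjusted p, 11 of 19 fell and 2 were higher, beside 23.2% and 22.9% of all genes. The lower genes held inhibitors (Socs1, Pias1, Pias3, Pias4 and Ptpn1) as well as Tyk2, Stat3, Stat4, Ptpn11, Uba7 and the receptor chain Il10rb. The count therefore gives no direction for signalling. Their median log2 fold change was -0.19. Pias1 was counted lower by its brightest probe set (-0.35), while its next was higher (0.24, limma adjusted p = 0.006268) and its dimmest lower (-0.19). Pias2, a SUMO ligase of the family that restrains STAT proteins, was the called exception, with 7.65, 7.67 and 7.67 in WT and 8.59, 8.55 and 8.68 in HDAC11-/- cells (0.95, limma adjusted p = 3.614e-05). Socs1, an inhibitor of JAK kinases, fell by 0.33 (adjusted p = 0.002909). Dimmer probe sets added called falls in Jak1, Ptpn11 and Uba7, the enzyme that activates ISG15. For Jak1, a kinase of both receptors, the dimmest probe set was at -1.24 (SE 0.39, adjusted p = 0.03981) with WT values from 8.91 to 10.23, while the brightest was at -0.19 and did not pass (adjusted p = 0.05269). Among 14 measured genes of nucleic acid sensing, 8 were lower and 1 was higher by adjusted p, beside the same shares of all genes. None was called (median -0.22). Ikbkg and Zbp1 were counted lower by their brightest probe sets, while dimmer ones passed as higher. Of 3 other IRF-related genes, Irf4, an IRF of activated lymphocytes, was higher by 0.42 (adjusted p = 0.000593).

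Families of interferon-stimulated genes were compared through the listed genes and the further 44 measured targets together. The families are small, and their counts by adjusted p stand beside 22.9% of all genes higher and 23.2% lower. All 5 immunity-related GTPases had negative fold changes and 3 passed, with Iigp1 and Irgm2 called. Irgm2 read 9.67, 9.69 and 9.66 in WT and 8.96, 8.91 and 8.99 in HDAC11-/- cells (-0.72, limma adjusted p = 7.089e-05). The 4 guanylate-binding proteins, which act beside those GTPases, were split, with Gbp3 higher and Gbp6 lower, both by less than 0.20. Gbp7 was higher by its brightest probe set (0.19, adjusted p = 0.04823) and lower by the other (-0.56, adjusted p = 0.01558), so no direction is given for it. Of 7 OAS genes, 4 were lower and 1 higher. Oas1b fell furthest, from 8.87, 8.88 and 8.95 in WT to 7.54, 7.55 and 7.58 in HDAC11-/- cells (-1.35, adjusted p = 7e-06), and Oas3 was higher by 0.43 (adjusted p = 0.00177).

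Of 5 TRIM genes, 4 were lower by adjusted p, beside 23.2% of all genes. Trim34a read 10.78, 10.89 and 10.90 in WT and 10.01, 10.00 and 10.01 in HDAC11-/- cells (log2 fold change -0.85, limma adjusted p = 5.864e-05), and Trim21, an Fc receptor of the cytosol, fell by 0.48 (adjusted p = 0.0004976). The IFITM genes, which block viral entry, did not move together, with Ifitm1 at -0.35, Ifitm2 at 0.31 and Ifitm3 at 0.54, each past the adjusted p threshold (0.02245, 0.02038 and 0.001043). Cmpk2, a nucleotide kinase induced by interferon, was called higher, with 6.95, 7.03 and 7.11 in WT and 7.63, 7.58 and 7.71 in HDAC11-/- cells (0.61, adjusted p = 0.0004707). Relatives in these families share sequence, and these values cannot tell whether a probe also reads a relative. By any probe set, 3 of the 90 further genes were called higher and 9 lower, beside 5.31% and 6.66% of all genes. The dimmer probe set of Trim12a and a probe set of Ciita, the activator of MHC class II genes, were at or below the bacterial controls in HDAC11-/- cells and were at least 1.61-fold and at least 1.30-fold lower, with the highest bacterial control as the floor.

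**Figure D4:**
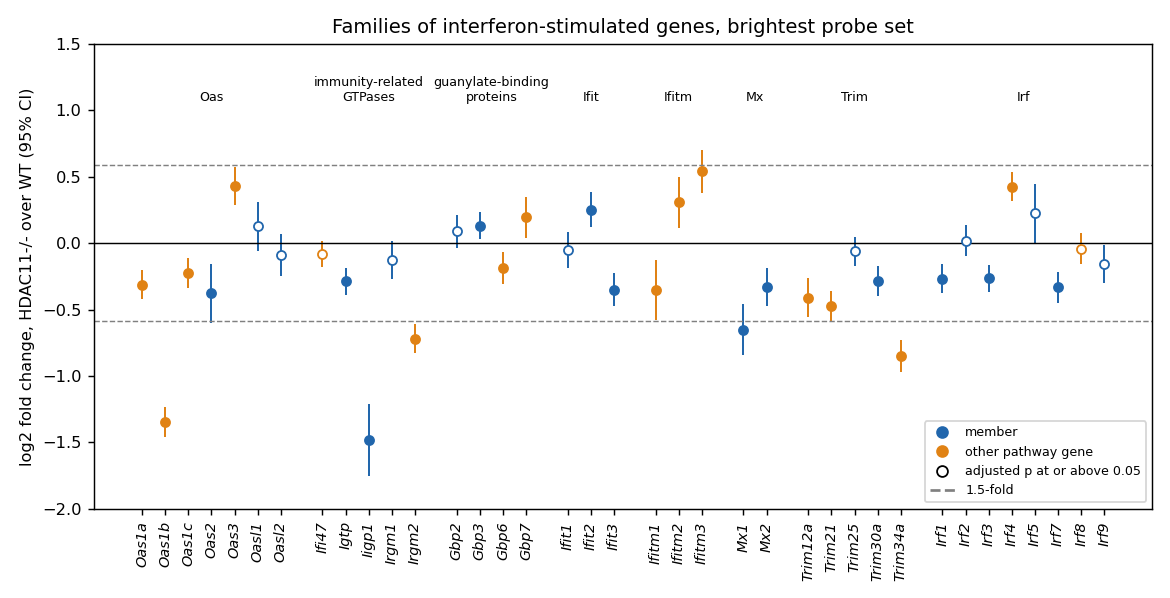
Log2 fold change of HDAC11-/- over WT (vertical axis) with 95% confidence intervals for measured genes of 8 families, blue for genes of the 40 listed and orange for further pathway genes. Open points have an adjusted p of 0.05 or above and dashed lines mark 1.5-fold; the 5 immunity-related GTPases lie below 0, and the IFITM genes run from -0.35 to 0.54.

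Among the 2 nearest measured genes on each side of a called gene, by RefSeq gene order in GRCm38.p6, some moved with it and some did not. Beside Cxcl10 (0.93), Art3 was at -0.42 (limma adjusted p = 0.004346) and Nup54 at 0.23 (adjusted p = 0.007764). Beside Iigp1 (-1.48), Isoc1 was at 0.08 (adjusted p = 0.3347) and Smim3 at 0.17 (adjusted p = 0.04069). Beside Irf3, Tsks was called lower like the third probe set of Irf3 (-1.26, adjusted p = 0.0014), while Prmt1 was higher at 0.57 (adjusted p = 0.0001643), Rras was at 0.05 and Prr12 at -0.16 (adjusted p = 0.04579). Beside Mx1 (-0.65), Dscam was called lower too (-0.80, adjusted p = 0.000936), and Mx2 was at -0.33. Trim30a has Trim12a and Trim34a on the same side (-0.41 and -0.85) and Trim30d on the other (-0.24, adjusted p = 0.3307). The remaining neighbours, Cxcl9 and Cxcl11 of Cxcl10, Fbn2 and BC023105 of Iigp1, Bace2 and Fam3b of Mx1 and Usp17la of Trim30a, were at or below the bacterial controls in both groups and have no fold here. Of the other listed genes, Igtp (-0.29) lies next to Irgm2 (-0.72), and in the Ifit group Ifit2 was higher, Ifit3 lower and Ifit1 at -0.05.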

How the data were processed

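Total RNA of 6 Treg samples was hybridised to Affymetrix Mouse430A arrays. The authors normalised the arrays by RMA in MAYDAY (version 2.12), and the deposited values are log2 expression per probe set. No source used here gives the genome build of the probe annotation. The table held 22671 probe sets, 45 of them controls that were not tested. Of the other 22626, the platform annotation gave 20380 a single gene symbol, 691 several and 1555 none; the 20380 covered 12393 genes. Precision is limited by the 3 arrays in each group, and the array medians ran from 6.74 to 6.77.

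Deposited values were fitted in R 4.3.3 with limma 3.58.1 (lmFit, eBayes, genotype only), two-sided with Benjamini-Hochberg adjustment over all 22626 probe sets, and the fit was tested on simulated data. Genes were called at an adjusted p below 0.05 where the change also reached 1.5-fold. Each gene took its value from its brightest probe set, by the mean of all 6 arrays. A level was taken as at background in a group where every array read at or below its own highest bacterial control. That highest value of the 27 bacterial control probe sets averaged 5.39 over the WT arrays and 5.14 over the HDAC11-/- arrays. Figures were drawn with matplotlib 3.10.9. Per-array values are given for genes with a called probe set, genes whose probe sets differed by over 1.5-fold in change, the 3 listed genes of highest mean (Igtp, Irf1 and Gbp2) and up to 4 called further pathway genes in each direction; the other genes were chosen as examples. Genes, lists and motifs were chosen with earlier results of these data known. Alternatives were SAM over all 20 labelings, an intensity trend, array weights, a replicate block, 2 other scalings, a level filter, other probe set rules and thresholds, and leaving out each array.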

Additional observations from a re-analysis of the deposited data

How the results depend on the processing

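The counts of 1 higher and 2 lower genes among the 36 were unchanged under SAM, the intensity trend, array weights, both other scalings and the filter on dim probe sets; the median over probe sets and the brightest probe set without a suffix each gave 1 higher and 3 lower. Leaving out 1 array gave 1 higher throughout and 1 to 2 lower. Counting any probe set gave 4 lower, dropping the fold threshold gave 6 higher and 14 lower, and asking for an adjusted p under 0.01 with 2-fold gave 0 higher and 1 lower, because Cxcl10 and Mx1 changed by less than 2-fold. For further pathway genes, reference gene scaling gave 1 higher and 10 lower and any probe set 9 lower; leaving out 1 array gave 2 to 4 higher and 4 to 5 lower. Medians moved under reference gene scaling to -0.31 (receptors), -0.41 (regulators), -0.20 (type I targets), -0.23 (interferon-gamma targets) and -0.23 (all 36), a shift set by the -0.14 of that scaling. The median over a gene's probe sets gave -0.0103 for receptors, 0.0147 for type I targets and -0.0529 for all 36, bacterial control scaling gave -0.0623 for all 36, and the filter on dim probe sets gave -0.0202 for interferon-gamma targets. Leaving out 1 array moved the medians within -0.2189 to -0.0723 (receptors), -0.1551 to -0.013 (interferon-gamma targets) and -0.1314 to -0.0773 (all 36). Signs reversed for Gbp3 on reference gene scaling (-0.011, adjusted p = 0.8319) and for Ifnar2 by the median over its probe sets (0.0331, adjusted p = 0.6462). Beyond the scalings the cause was not tested.

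With the replicate number as a block the counts stayed at 1 higher and 2 lower. Without the fold threshold the block gave 4 higher and 14 lower, since Gbp3 (adjusted p = 0.08815), Isg20 (0.05194) and Rsad2 (0.05879) no longer passed and Ifngr2 passed as lower (0.03147). SAM without the fold threshold gave 3 higher and 13 lower: Gbp3 (0.1704), Isg20 (0.08436), Usp18 (0.113) and Rsad2 (0.1395) did not pass. The deviations of same-numbered arrays correlated at 0.23, -0.02 and 0.16, and those of differently numbered arrays at -0.21 to 0.06. The main fit left the number out, and whether same-numbered arrays shared a source was not tested.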

Other observations

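In 10 of the 36 genes (27.8%) the array numbered 1 was the highest of its genotype in both genotypes, beside 1371 of all 12393 genes (11.1%). The genes were Dhx58, Eif2ak2, Ifit3, Ifnar1, Ifnar2, Ifngr2, Iigp1, Irf1, Irf7 and Irgm1. This count was made after the values were seen, and its source was not tested.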
